A study of Mus musculus with 4 samples.

Results

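The transcripts described here are those of cytoplasmic antiviral RNA recognition: the oligoadenylate synthetase genes Oas1a, Oas1g, Oas2 and Oasl2, the IFIT genes Ifit1, Ifit2 and Ifit3, the RNA helicase sensor genes Ifih1 and Ddx58, and Eif2ak2, the gene of the RNA-activated kinase PKR. Members were the probe sets whose platform annotation names exactly 1 gene, that gene being one of these 10. This gave 9 probe sets for 8 genes, out of 22626 probe sets and 12393 genes in all, with 2 probe sets for Eif2ak2 and 1 for each of the others. Oas1g and Ddx58 had no such probe set and are not analysed here. RNA came from differentiated 3T3-F442A adipocytes, a mouse preadipocyte line turned into fat cells in culture, and was hybridised to 4 Affymetrix arrays. Of these, 2 carried the label shTRPV4, a hairpin against the calcium-permeable channel gene Trpv4, and 2 the label shGFP, a control hairpin. Cells of both groups had been infected as preadipocytes with a hairpin-carrying retrovirus, selected with puromycin (2 ug/ml, 2 days), and turned into fat cells by 8 days in 850 nM insulin. Rosiglitazone, a PPAR gamma agonist, was present on the first 2 of those days. Both groups therefore carried a retroviral hairpin, and no cells without one were analysed here. The labels do not say how many hairpin sequences or clones were used, or whether the replicates were separate infections or cultures, so the p-values cover no more than the array-to-array spread, which may be technical.

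These genes form a detection and effector system for foreign RNA. OAS enzymes bind double-stranded RNA and make 2'-5'-linked oligoadenylates, which set off the cleavage of RNA in the cell. IFIT proteins bind viral and other RNAs through tetratricopeptide repeats, the helicases RIG-I (Ddx58) and MDA5 (Ifih1) signal through the adaptor MAVS to interferon genes, and PKR phosphorylates the translation factor eIF2 alpha. All are textbook interferon-stimulated genes, induced when the transcription factor complex ISGF3 binds an interferon-stimulated response element (ISRE) in their promoters.

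RefSeq promoter windows of GRCm38.p6, 250 bases before to 50 after an annotated gene start, were at hand for 9 of the 10 genes, Oas2 being the one without. They were searched on both strands for the ISRE core (GAAA, any 2 bases, GAAA). It was found in 7 of the 10 windows of these 9 genes, against 3.44% of all 32851 windows of the table. The 7 are those of Oas1a, Oas1g, Ifit1, Ifit3, Ifih1, Ddx58 and Eif2ak2. Oas1g and Ddx58 are not analysed here, and the stretch with the matches of Oas1g has the same letters as that of Oas1a. The 4 windows below are shown because the first 3 belong to the genes with the largest differences between the groups and the last to a gene whose difference did not pass the test. Capitals mark matches to the ISRE core, on the coding strand of Oas1a and Eif2ak2 and on the opposite strand of Ifit1. The windows are chr5:120907476-120907775 (minus strand) for Oas1a, chr19:34640639-34640938 (plus strand) for Ifit1, chr5:114896684-114896983 (plus strand) for Oasl2, and chr17:78882523-78882822 (minus strand) for Eif2ak2.
Oas1a: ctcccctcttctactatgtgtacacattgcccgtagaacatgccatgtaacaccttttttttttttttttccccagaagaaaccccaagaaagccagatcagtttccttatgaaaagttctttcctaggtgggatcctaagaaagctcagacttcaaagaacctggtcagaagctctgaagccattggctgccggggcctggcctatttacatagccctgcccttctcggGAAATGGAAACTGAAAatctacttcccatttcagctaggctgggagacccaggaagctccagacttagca
Ifit1: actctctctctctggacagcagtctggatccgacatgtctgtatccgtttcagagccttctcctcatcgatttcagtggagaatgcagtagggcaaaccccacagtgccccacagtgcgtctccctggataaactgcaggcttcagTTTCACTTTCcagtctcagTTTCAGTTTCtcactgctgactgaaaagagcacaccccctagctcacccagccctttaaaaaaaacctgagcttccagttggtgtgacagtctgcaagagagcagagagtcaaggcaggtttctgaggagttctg
Oasl2: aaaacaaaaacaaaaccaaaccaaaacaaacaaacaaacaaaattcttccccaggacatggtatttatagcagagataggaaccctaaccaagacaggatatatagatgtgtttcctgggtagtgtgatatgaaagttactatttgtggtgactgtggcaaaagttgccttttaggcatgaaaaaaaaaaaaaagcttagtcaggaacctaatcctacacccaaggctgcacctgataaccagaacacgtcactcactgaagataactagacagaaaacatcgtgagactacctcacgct
Eif2ak2: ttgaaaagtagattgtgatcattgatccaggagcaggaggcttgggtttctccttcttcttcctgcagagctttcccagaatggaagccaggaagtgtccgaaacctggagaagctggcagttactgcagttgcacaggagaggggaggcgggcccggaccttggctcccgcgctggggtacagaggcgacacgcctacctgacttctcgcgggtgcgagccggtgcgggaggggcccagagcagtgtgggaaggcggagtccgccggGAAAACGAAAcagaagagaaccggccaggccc
In Oas1a, 2 overlapping matches ran from base 231 to base 246 of the window. Ifit1 held 2 separate matches, starting at bases 147 and 166. Oasl2 held 0 matches in its window, and Eif2ak2 held 1, starting at base 269. The stretches with the matches of Ifit3 (chr19:34583279-34583578, plus strand) and Ifih1 (chr2:62646206-62646505, minus strand) are shown because these genes, like Eif2ak2, hold the element and did not pass the test. Both 10-base matches of Ifit3 have the same letters as those of Ifit1.
Ifit3: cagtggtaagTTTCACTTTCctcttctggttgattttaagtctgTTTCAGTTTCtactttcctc
Ifih1: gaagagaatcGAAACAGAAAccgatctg
Ifit2 held 0 ISRE matches in either of its 2 windows. For Ifit2 and Oasl2, an element outside the windows or one with other letters would have been missed. The interferon gamma-activated site core (TTC, any 3 bases, GAA) was present in 3 of the 10 windows (of Oas1a, Ifit2 and Eif2ak2) and in 8.30% of all windows. The kappa B consensus was present in 1 of the 10 (of Ifit2, where it overlapped that match) and in 5.80% of all windows. A match is a description of letters in these windows, and no binding was measured.

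Of the 9 member probe sets, 4 fell in the arrays labelled shTRPV4 and 0 rose, against 5.36% of all probe sets lower and 4.54% higher by the same test. Those that fell belong to Oas1a, Oasl2, Ifit1 and Ifit2. Those of Ifit3, Ifih1, Oas2 and both of Eif2ak2 did not pass. The test was limma on log2(intensity + 16) after quantile normalization, over all probe sets, with a Benjamini-Hochberg adjusted p under 0.05 as the threshold. Differences below are on that scale, as shTRPV4 minus shGFP, with the 95% interval where given. Arrays of bulk cultures cannot tell fewer cells that carry a transcript apart from less of it per cell. As deposited, both shTRPV4 intensities lay below both shGFP intensities in 7 of the 9 member probe sets, against 30.3% of all probe sets, and above them in 0 of 9, against 26.2%. The exceptions were Oas2 and the probe set 1422006_at of Eif2ak2, where the groups overlapped.

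**Figure D1:**
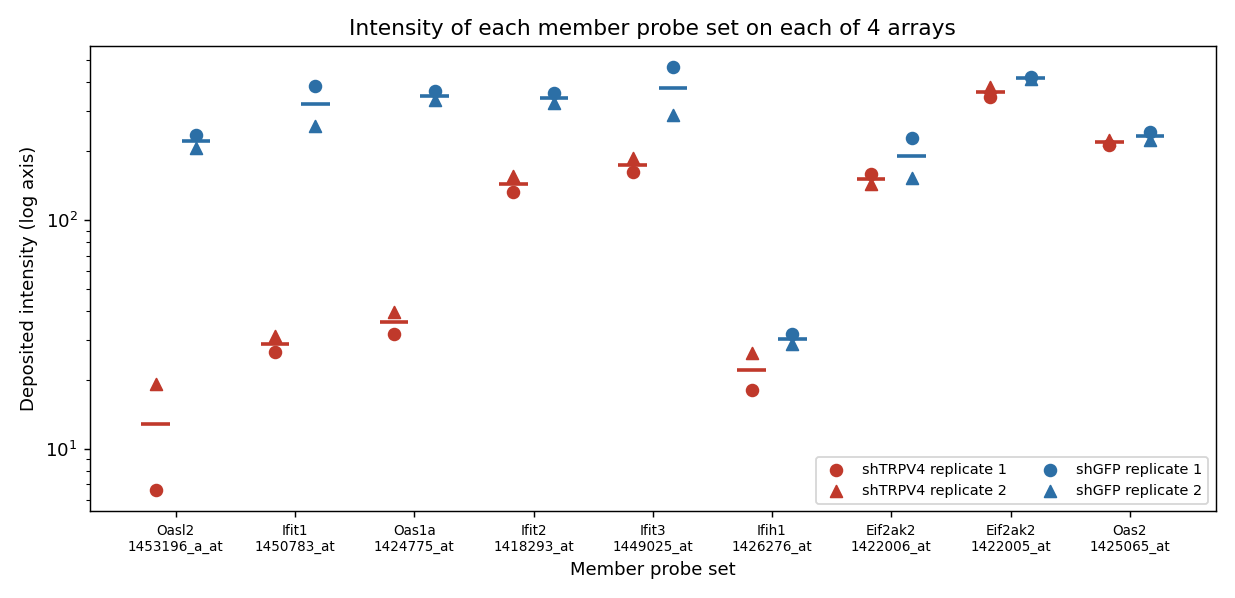
Deposited intensity (log axis) of the 9 member probe sets on each array, with shTRPV4 in red left of shGFP in blue; circles are replicate 1, triangles replicate 2 and bars group means (n = 2). The groups are far apart for Oasl2, Ifit1 and Oas1a and overlap for Oas2 and the Eif2ak2 probe set 1422006_at.

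The oligoadenylate synthetase genes were split. Oas1a, which encodes an OAS enzyme with a single catalytic unit, read 31.7 and 39.8 in the arrays labelled shTRPV4, against 365 and 333 in the arrays labelled shGFP. The groups were far apart, and the shTRPV4 mean was 10.2% of the shGFP mean. The fall was 6.82-fold (log2 difference −2.77, SE 0.13, interval −3.14 to −2.40, limma adjusted p = 0.0147). Whether the Oas1a probe set also reads Oas1g was not tested. Oasl2, a family member with ubiquitin-like domains at its end, read 6.61 and 19.2 in the arrays labelled shTRPV4, against 235 and 207 in the arrays labelled shGFP. The fall was 8.14-fold (−3.02, SE 0.26, limma adjusted p = 0.0202), and one shTRPV4 reading lay below the offset of 16 and the other just above it, so its size depends on the offset. Only 0.031% of all probe sets ranked at or below it in signed difference, against 0.044% for Oas1a.

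Oas2, whose enzyme has paired OAS units, read 214 and 225 in the arrays labelled shTRPV4, against 243 and 224 in the arrays labelled shGFP. The groups overlapped, with a difference of −0.01 (interval −0.27 to 0.24, limma adjusted p = 0.94). That interval lies wholly above the intervals of Oas1a and Oasl2, although the difference between the genes was not itself tested. With median centring in place of quantile normalization the sign of the Oas2 difference turned (0.014).

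The 3 IFIT genes all read lower on both shTRPV4 arrays, and 2 of them passed. Ifit1, which binds RNA whose cap lacks the methyl mark of host messages, read 26.6 and 31.1 in the arrays labelled shTRPV4, against 384 and 257 in the arrays labelled shGFP. It fell 7.15-fold (−2.84, SE 0.24, interval −3.53 to −2.15, limma adjusted p = 0.0200), a difference larger than the wide gap between the shGFP arrays. Ifit2 read 133 and 155 in the arrays labelled shTRPV4, against 361 and 323 in the arrays labelled shGFP. It fell 2.13-fold (−1.09, SE 0.11, interval −1.42 to −0.77, limma adjusted p = 0.0249), and its interval lies wholly above that of Ifit1.

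Ifit3, whose human counterpart stabilises IFIT1, read 162 and 186 in the arrays labelled shTRPV4, against 466 and 288 in the arrays labelled shGFP. The groups did not overlap, but the shGFP arrays were far apart, and the difference of −0.95 (SE 0.28, interval −1.76 to −0.15) did not pass (limma adjusted p = 0.12). Without shGFP replicate 1 it was −0.58, and without shGFP replicate 2 it was −1.33. Mouse Ifit3 has a closely related neighbour, Ifit3b, and whether this probe set also reads it was not tested.

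Among the sensors with a helicase or kinase domain, none passed. Ifih1, the gene of MDA5, was dim, with 18.0 and 26.3 in the arrays labelled shTRPV4, against 31.8 and 28.8 in the arrays labelled shGFP. Its difference was −0.26 (interval −0.66 to 0.15, limma adjusted p = 0.32), at intensities close to the offset of 16, where a change could be missed. It was −0.087 without shTRPV4 replicate 1 and −0.43 without shTRPV4 replicate 2. The brighter Eif2ak2 probe set, 1422005_at, gave 345 and 380.1 in the arrays labelled shTRPV4, against 423 and 412 in the arrays labelled shGFP. These groups did not overlap, yet they lay close together (−0.14, interval −0.37 to 0.09, limma adjusted p = 0.35). The other, 1422006_at, gave 159.8 and 143 in the arrays labelled shTRPV4, against 229 and 153 in the arrays labelled shGFP, and differed by −0.20 (interval −0.89 to 0.48, limma adjusted p = 0.63). The interval of the brighter probe set allows a fall of at most 0.37 on the log2 scale, whereas that of the second leaves room for a larger one, and the second turned to 0.11 without shGFP replicate 1.

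**Figure D2:**
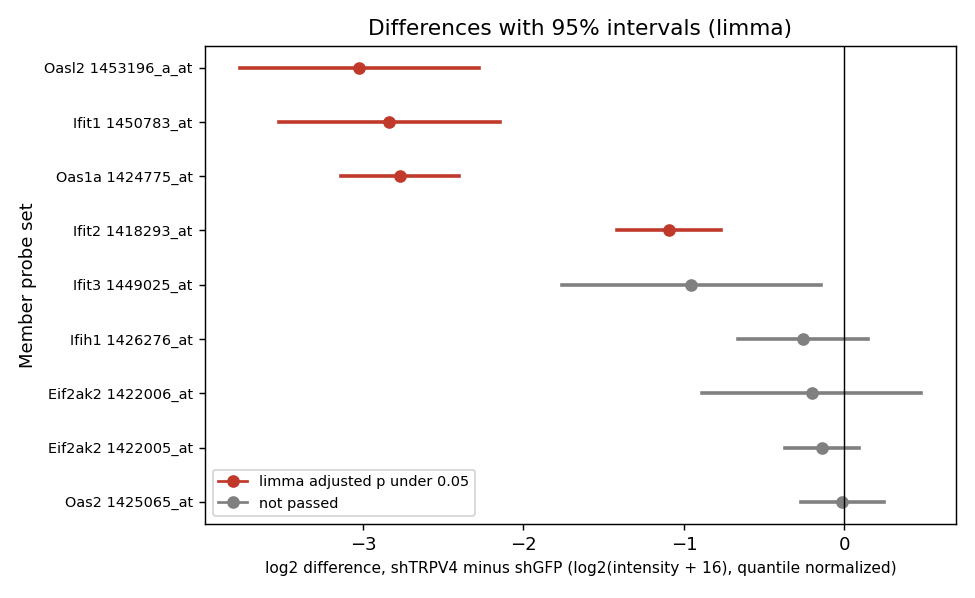
Log2 difference (shTRPV4 minus shGFP) of each member probe set with its 95% limma interval, in log2(intensity + 16) units, quantile normalized; red marks an adjusted p under 0.05. Oasl2, Ifit1 and Oas1a lie between −3.02 and −2.77, Ifit2 at −1.09, and the intervals of Ifih1, Oas2 and both Eif2ak2 probe sets span 0.

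Over the 8 member genes, each by its brighter probe set, the median difference was −1.02, against 0.02 over all 12393 genes. All 8 differences were negative, as were 46.2% over all genes.

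**Figure D3:**
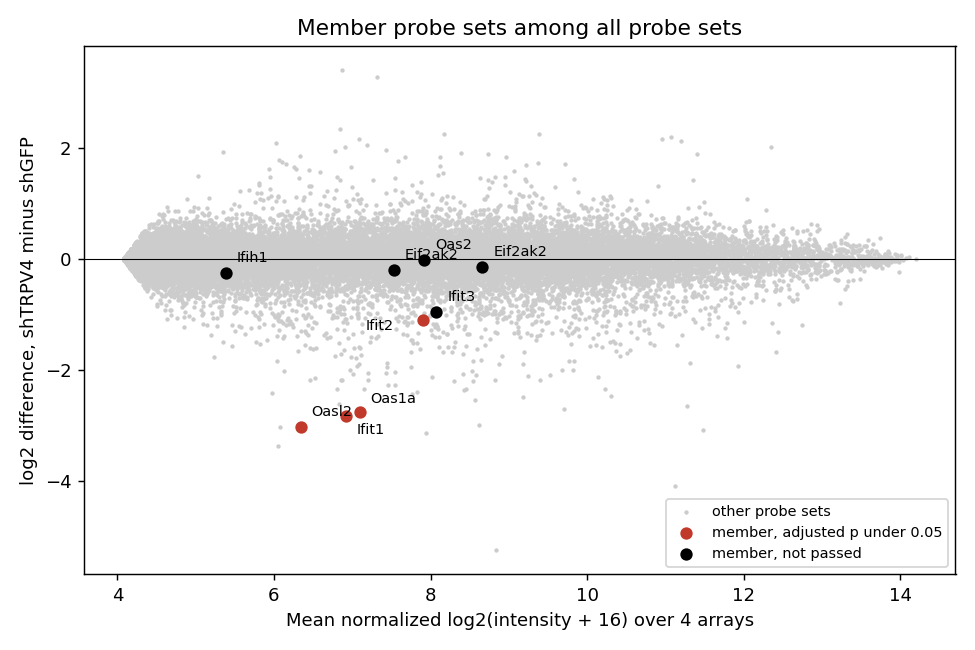
Log2 difference (shTRPV4 minus shGFP) against mean normalized log2(intensity + 16) over 4 arrays, for all 22626 probe sets in grey and the 9 member probe sets in red (adjusted p under 0.05) or black. Oasl2, Ifit1 and Oas1a lie at the lower edge of the cloud, while the Oas2 point lies at −0.01.

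The members also moved together between replicate arrays of 1 group. After normalization shGFP replicate 1 read above shGFP replicate 2 in 9 of 9 member probe sets, with gaps from 0.08 for Ifih1 to 0.76 for Ifit3 on the log2 scale and a median of 0.22. Over all probe sets 49.7% had that order, with a median gap of 0.00. Between the shTRPV4 arrays replicate 2 read above replicate 1 in 8 of 9, against 51.6% of all probe sets. Of the 77 pathway genes described below, 54 read higher on shGFP replicate 1 than on shGFP replicate 2, against 48.5% of all genes. Between the shTRPV4 arrays, 45 of the 77 read higher on replicate 2, against 51.3% of all genes, with a median gap of −0.016 (replicate 1 minus replicate 2). As deposited, both shGFP arrays lay above both shTRPV4 arrays in 7 of the 9 member probe sets, against 30.3% of all probe sets. The 4 that passed are among these 7, but the test selects for that order, so it is no separate support.

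Of 98 further genes of the same pathways in 6 lists, 77 had a probe set, and 18 of these fell and 1 rose, against 6% of all genes lower and 5.33% higher. With an offset of 1 in place of 16, 5 fell. A gene was represented by its brightest probe set. Of 8 genes of the OAS system outside the members, 1 fell and 0 rose (list median −0.06). The one that fell was Oas1b, the flavivirus resistance gene of mice, with 38.8 and 42.5 in the arrays labelled shTRPV4, against 75.2 and 87.6 in the arrays labelled shGFP (−0.71, SE 0.09, limma adjusted p = 0.0312). Oas3, the largest OAS enzyme, read 69.5 and 77.4 in the arrays labelled shTRPV4, against 88.4 and 55.8 in the arrays labelled shGFP, with a difference of 0.11 (SE 0.22, limma adjusted p = 0.78).

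Of 18 RNA sensing partners and MAVS pathway genes, 2 fell and 0 rose (list median −0.07). Tlr3, the endosomal receptor for double-stranded RNA, fell by 0.84 (SE 0.11, limma adjusted p = 0.0324) on a probe set that can read related transcripts, and its other probe set differed by −0.50 (adjusted p = 0.089). The helicase gene Ddx60 fell by 1.58 (SE 0.21, adjusted p = 0.0346), with 11.4 and 7.75 in the arrays labelled shTRPV4, below the offset, against 75.9 and 49.5 in the arrays labelled shGFP. Dhx58, which encodes the third RIG-I-like helicase, LGP2, differed by −0.77 on its brightest probe set (limma adjusted p = 0.088). Its other probe sets differed by −0.62 and −0.06, and none passed. Irf7, the amplifier of interferon alpha genes, differed by −0.69 (limma adjusted p = 0.090). Mavs itself lay in the other direction, with 1090 and 978 in the arrays labelled shTRPV4, against 716 and 754 in the arrays labelled shGFP, and did not pass either (0.52, adjusted p = 0.059). Irf3, its downstream factor, differed by 0.11 (adjusted p = 0.58) on its brightest probe set, and its 4 probe sets disagreed in sign with none past the threshold.

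Of 11 PKR partners and eIF2 alpha kinases, 0 fell and 1 rose (list median 0.23). The gene that rose was Eif2ak3, which encodes the endoplasmic reticulum stress kinase PERK, with 1303 and 1224 in the arrays labelled shTRPV4, against 885 and 932 in the arrays labelled shGFP (0.50, SE 0.08, limma adjusted p = 0.0435). Its 2 dim probe sets had negative differences that did not pass. Adar, whose enzyme edits adenosines in double-stranded RNA, read 22.8 and 50.5 in the arrays labelled shTRPV4, against 152 and 143 in the arrays labelled shGFP. That difference of −1.62 did not pass (SE 0.31, limma adjusted p = 0.059).

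Of 13 interferon, receptor and signal transducer genes, 4 fell and 0 rose (list median −0.17). Both chains of the type I interferon receptor were among them, Ifnar1 by 0.43 (SE 0.06, limma adjusted p = 0.0386) and Ifnar2 by 0.56 (SE 0.06, adjusted p = 0.0283). The second Ifnar2 probe set fell by 1.12. Irf9, the DNA-binding part of ISGF3, read 114 and 116 in the arrays labelled shTRPV4, against 257 and 238 in the arrays labelled shGFP (−0.92, SE 0.09, adjusted p = 0.0222). Usp18, the protease that removes ISG15 and damps the receptor, fell by 1.75 (SE 0.21, adjusted p = 0.0295). Stat2 differed by −0.60 on its brightest probe set and did not pass (limma adjusted p = 0.11). Its other probe set differed by −0.16 (limma adjusted p = 0.48). Isg15 is not analysed here. The interferon beta gene Ifnb1 was dim on every array, with 34.7 and 24.8 in the arrays labelled shTRPV4, against 17.7 and 25.98 in the arrays labelled shGFP (0.30, interval −0.18 to 0.77, adjusted p = 0.32).

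Of 27 other interferon-induced antiviral genes, 11 fell and 0 rose (list median −0.48). The largest falls were those of Ifi27l2a (−2.35, SE 0.17) and of the receptor chaperone gene Rtp4 (−2.34, SE 0.17), both with a limma adjusted p of 0.0171. A second, dim Rtp4 probe set overlapped between the groups and differed by 0.03 (adjusted p = 0.87). Bst2, the tetherin that holds budding virions at the membrane, read 475 and 547 in the arrays labelled shTRPV4, against 1422 and 1339.62 in the arrays labelled shGFP (−1.37, SE 0.10). Ifitm3, a block to viral entry and the brightest gene of this list, read 3481 and 3524 in the arrays labelled shTRPV4, against 8595 and 8484 in the arrays labelled shGFP (−1.32, SE 0.06). The ubiquitin ligase family gene Trim30a (−1.33, SE 0.12) and the ADP-ribosyltransferase gene Parp14 (−1.23, SE 0.09) fell as well. The 3 genes of the IFIT family outside the members had no probe set and are not analysed here.

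**Figure D4:**
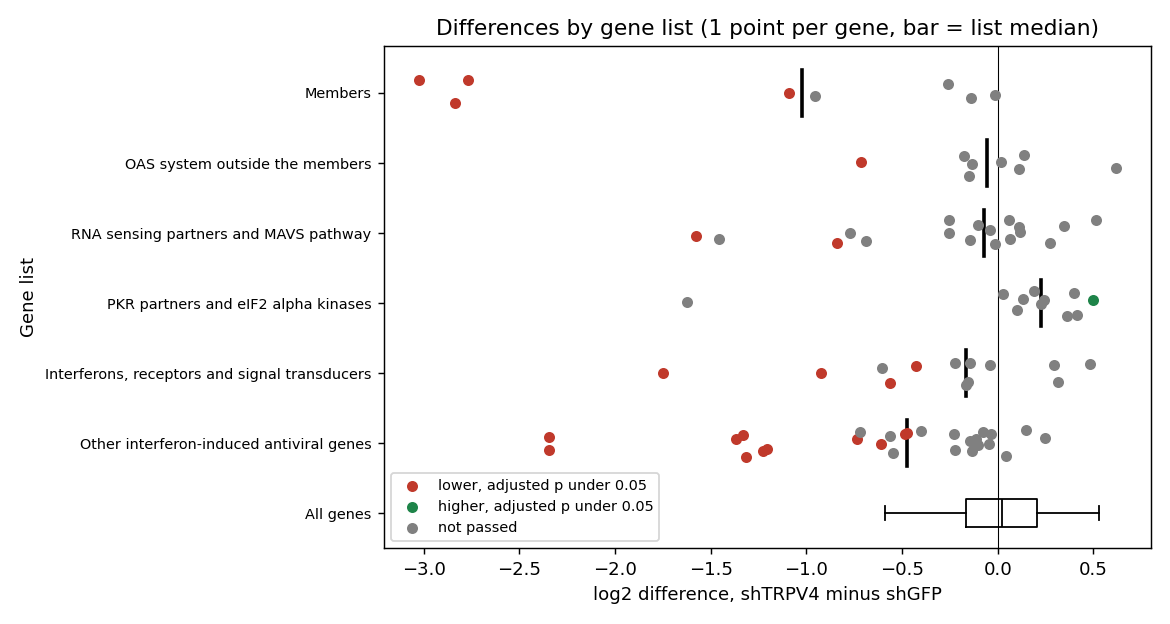
Log2 difference (shTRPV4 minus shGFP) of the member genes and of the genes of 5 pathway lists, 1 point per gene by its brightest probe set, with a black bar at the list median; the box gives the quartiles of all genes with whiskers at percentiles 5 and 95. The member median is −1.02, that of the other interferon-induced antiviral genes −0.48, and that of the PKR partners and eIF2 alpha kinases 0.23.

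By the rule for likeness, the 5 other genes nearest to the median profile of the members over the 4 arrays were Acp2, Dusp6, Sod3, Maged2 and Il1rap. Their root mean square distances ran from 0.087 to 0.114 on the log2 scale and their differences from −1.14 to −0.95. With 4 arrays in 2 groups this measure mainly compares the size of the group difference, and none of the 5 is in a pathway list.

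The label of the arrays was checked against its markers and target. Adipoq, the adiponectin gene of fat cells, read 13294 and 14169 in the arrays labelled shTRPV4, against 11785 and 11816 in the arrays labelled shGFP. Its difference of 0.16 did not pass (limma adjusted p = 0.195). Of 10 adipocyte markers 4 rose and 0 fell. Those that rose were Retn (1.90), Slc2a4 (1.16), Cebpa (0.88) and Pparg (0.45). Trpv4 itself did not check the labels: its only probe set gave 80.1 and 79.5 in the arrays labelled shTRPV4, against 43.7 and 93.8 in the arrays labelled shGFP (0.32, interval −0.55 to 1.19, limma adjusted p = 0.55). Among 9 markers of preadipocytes and fibroblasts, 6 fell and 0 rose, and their summed intensity was 44867 to 45993 in the arrays labelled shTRPV4, against 56452 to 59042 in the arrays labelled shGFP. The median difference of these 9 markers was −1.07, beside −1.02 for the 8 member genes, with Lum at −2.28, Dcn at −1.68 and Pdgfra at −1.25, while the bright Vim and Col1a2, which make up much of the sum, differed by 0.11 and 0.00. Of 16 macrophage markers 4 fell and 1 rose, with sums of 829 to 873 in the arrays labelled shTRPV4, against 1477 to 1629 in the arrays labelled shGFP. The list median was −0.04. Those that fell were Cd14 (−0.96), Lyz1 (−1.95 on its brightest probe set), Lyz2 (−1.89) and Csf1r (−0.85 on its brightest probe set). Cd68 rose (1.49). Another Lyz1 probe set differed by −2.06, and both of these can read related transcripts. The Lyz1 _at probe set differed by 0.18 and lay below the offset of 16 on every array. The other Csf1r probe sets differed by −0.13 and −0.06. Adgre1 read 94.0 and 83.7 in the arrays labelled shTRPV4, against 73.0 and 70.5 in the arrays labelled shGFP. The brightest C1qb probe set gave 62.45 and 55.05 in the arrays labelled shTRPV4, against 73.1 and 57.8 in the arrays labelled shGFP, whereas Ptprc, Fcgr1, C1qa and C1qc lay between 1.13 and 11.25 on every array. The part of these markers in the falls of Oas1a, Oasl2, Ifit1 and Ifit2 was not tested.

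The calls rest on all 4 arrays together. With any 1 of the shTRPV4 or shGFP arrays left out, the calls were lost over the whole table, not only for the members. The members' differences stayed between −2.89 and −2.65 for Oas1a and between −3.36 and −2.71 for Oasl2. Those of Ifit1 stayed between −3.13 and −2.53, and those of Ifit2 between −1.20 and −0.99. Each fit with 1 array left out has 1 residual degree of freedom. The smallest p that an exact permutation test of 2 against 2 arrays can give is 0.333, so no single probe set could pass that way. The offset set the size of the large falls: with offsets of 1 and 64 the difference was −4.11 and −1.86 for Oasl2, −3.35 and −2.00 for Ifit1, and −3.20 and −2.01 for Oas1a. With an offset of 1 the calls on Oasl2 (limma adjusted p = 0.0695) and Ifit2 (adjusted p = 0.0545) were lost.

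**Figure D5:**
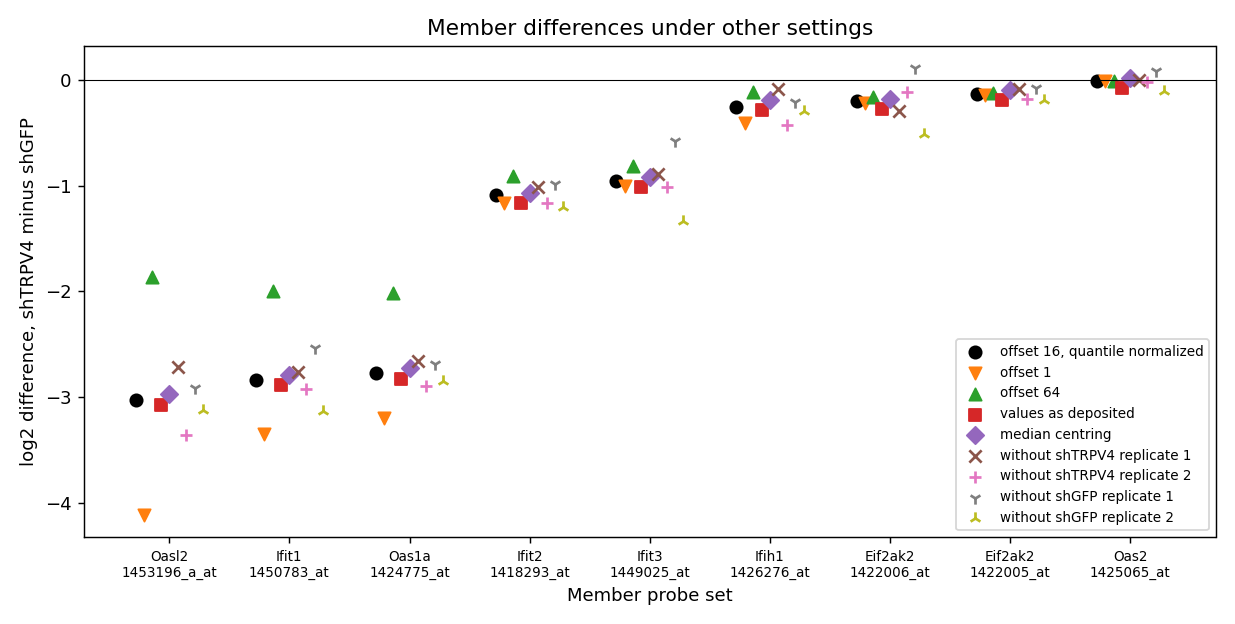
Log2 difference (shTRPV4 minus shGFP) of each member probe set with offset 16 and quantile normalization (black), with other offsets or scalings, and with each array left out. Oasl2 runs from −4.11 to −1.86 and Ifit3 from −1.33 to −0.58, while Ifit2 stays between −1.20 and −0.91.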

How the data were processed

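Expression was measured on 4 Affymetrix arrays, 2 labelled shTRPV4 and 2 labelled shGFP, grouped by their titles. The authors deposited 1 linear intensity per probe set and array. Biotinylated cRNA was made by the manufacturer's procedure, per the labels' protocols, and the summarisation, background correction and scaling were not given in the sources used here. No detection calls were used, so the intensity that stands above background is unknown, and the number of arrays limits the precision.

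Intensities were taken as log2(intensity + 16). The array medians on that scale spanned 0.14, over the limit of 0.1, so the arrays were quantile normalized. The offset understates the change of dim probe sets. limma 3.58.1 in R 4.3.3 (lmFit, eBayes without trend) was fitted over all 22626 probe sets, with group as the only term, and p-values were adjusted over all of them. The fit was tested on simulated data. The platform annotation gave 20380 probe sets 1 gene symbol, 691 several and 1555 none. Of the first, 20351 matched the RefSeq table of GRCm38.p6 by gene ID, and 0 symbols changed. No array build is named, so coordinates are those of the RefSeq promoter table only.

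All member probe sets are named. From each pathway list the genes past the threshold are named, at most the 6 largest, with a set of genes named by role whatever their values. Oas3 falls outside that rule, and its values had been seen when it was chosen. Members, lists and rules were chosen with earlier results of these data known. Alternatives were other offsets, scalings and filters, an intensity trend, averaged probe sets, each array left out, and a replicate block.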

Additional observations from a re-analysis of the deposited data

How the results depend on the processing

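The 4 member calls were also made with an offset of 64, with the values as deposited, with median centring, with probe sets under the 25th percentile left out and with an intensity trend. An offset of 1 left 2 (Oas1a and Ifit1), and a filter on the dimmer probe sets, at the 50th percentile, also gave 2, since it removes Oas1a, Oasl2, Ifit1 and Ifih1. It kept Ifit2 and added Ifit3 (limma adjusted p = 0.0219). The Oas2 difference turned to 0.014 with median centring and to 0.079 without shGFP replicate 1 (range with each array left out −0.11 to 0.079), and that of the Eif2ak2 probe set 1422006_at to 0.11 without shGFP replicate 1 (range −0.51 to 0.11). The cause was not tested.

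Over all probe sets, 1213 were lower and 1027 higher. The counts lower and higher were 426 and 180 with an offset of 1, 1986 and 2130 with 64, 1161 and 600 with the values as deposited, 1141 and 1662 with median centring, 1975 and 2084 or 2232 and 2642 with probe sets under the 25th or 50th percentile left out, and 1980 and 2170 with an intensity trend. Of the pathway genes 18 fell, 5 with an offset of 1 and 17 to 23 with the other settings that use all 4 arrays without a block. With each array left out all 4 counts ranged from 0 to 0, with 4543 to 5913 probe sets at an unadjusted p under 0.05. The replicate block also gave 0 for each of the 4 counts, with 6858 probe sets, 5 of them members, at an unadjusted p under 0.05. The labels do not say that a number pairs arrays, and the deviations of the same-numbered arrays correlated at 0.12 over probe sets. These fits have 1 residual degree of freedom each. Dim readings near the offset, as for Ifih1 and for Oasl2 in the arrays labelled shTRPV4, limit what can be seen.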
